A study of Mus musculus with 2 samples.

Results

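The Dlk1-Dio3 region of mouse chromosome 12 is an imprinted domain, a stretch in which each gene is read from the chromosome of 1 parent only. Meg3, Rian and Mirg are its long noncoding RNAs and are read from the maternal chromosome, and the protein-coding genes Dlk1 and Rtl1 are read from the paternal one. These 5 genes were taken by symbol from a count table of 32286 genes, and all 5 had a row. They were chosen by measured values of these same libraries, the higher Meg3 and Rian counts in hepatocyte nuclei of the Cox10-/- library. The difference between the libraries is therefore given as a description and carries no test.

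Cox10-/- and wild-type regenerating livers gave 1 single-nucleus RNA library each, so every comparison is between 2 libraries and no p-value was computed. Mice of both groups carried a floxed Cox10 allele. Cox10 encodes an enzyme that makes heme A for mitochondrial cytochrome c oxidase. AAV8-Cre or AAV8-GFP, an adeno-associated virus that infects hepatocytes above other liver cells, was given 4 weeks ahead of removal of 70% of the liver. The number of animals behind each library is not stated. Which virus each liver received is read from its genotype label. The protocol places dissection 4 days after surgery and the sample characteristics state 4 weeks, so the time of regrowth is not settled. Intervals in parentheses are exact 95% intervals that cover counting error only, not the spread between animals.

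A UMI (unique molecular identifier) tags each captured transcript once. There were 5167 nuclei with 14476400 UMIs in the Cox10-/- library and 5448 nuclei with 17703804 UMIs in the wild-type library. A limit of 10% mitochondrially encoded UMIs kept 3128 Cox10-/- nuclei and 1542 wild-type nuclei, with medians of 2538 and 4424 UMIs. Hepatocyte-like nuclei numbered 1170 in the Cox10-/- library and 1502 in the wild-type library. Other named classes were almost absent from the wild-type library, with 25 endothelial-like nuclei against 833 in the Cox10-/- library and 2 stellate-like nuclei against 617. Cox10 itself had 183 UMIs (43.9 CPM, counts scaled to a common total per sum) in Cox10-/- hepatocyte-like nuclei and 254 UMIs (35.7 CPM) in wild-type ones. A 3' count per gene does not show which exons a transcript holds, so it does not check the deletion. The libraries shared 7 cell barcodes.

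Meg3 is the first of the maternal noncoding RNAs of the domain. Rian hosts small nucleolar RNAs and microRNAs, and Mirg hosts a large microRNA cluster. Dlk1 encodes a membrane protein of the Notch ligand family that is abundant in fetal hepatoblasts, and Rtl1 a protein derived from a retrotransposon that is needed in the placenta. The imprinting control region lies upstream of Meg3. On mm10, Dlk1 spans chromosome 12 from 109452823 to 109463336, Meg3 from 109541001 to 109571726, Rian from 109603940 to 109661716 and Mirg from 109729764 to 109749460, all on the plus strand. Rtl1 lies between Meg3 and Rian on the minus strand, from 109589193 to 109600330. RefSeq places 54 microRNA hairpins on the plus strand between the start of Meg3 and the end of Mirg, of which 14 lie within Mirg, 3 within Rian and 1 within Meg3. MicroRNAs were not measured.

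The promoter windows of the 3 noncoding RNAs are shown because these RNAs were all higher in the Cox10-/- library and are read in the same direction. Each window is 300 bases of GRCm38.p6 from RefSeq, on the plus strand, around a start annotated there. RefSeq starts can differ from those of GENCODE, which gave the spans above, and the Mirg window lies inside the GENCODE span of Mirg. Capitals mark matches, on either strand, to TGACGTCA (the cAMP response element), TATAAA (the TATA box), CCAAT, or CTTTGAT and CTTTGAA (core sites of TCF/LEF factors).
Meg3, chr12:109540746-109541045: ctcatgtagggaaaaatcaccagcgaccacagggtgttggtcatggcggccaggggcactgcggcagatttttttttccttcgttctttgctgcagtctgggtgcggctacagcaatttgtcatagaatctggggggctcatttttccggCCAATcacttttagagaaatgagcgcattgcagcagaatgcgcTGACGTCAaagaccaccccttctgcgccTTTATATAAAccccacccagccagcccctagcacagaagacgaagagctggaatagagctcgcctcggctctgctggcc
Rian, chr12:109603695-109603994: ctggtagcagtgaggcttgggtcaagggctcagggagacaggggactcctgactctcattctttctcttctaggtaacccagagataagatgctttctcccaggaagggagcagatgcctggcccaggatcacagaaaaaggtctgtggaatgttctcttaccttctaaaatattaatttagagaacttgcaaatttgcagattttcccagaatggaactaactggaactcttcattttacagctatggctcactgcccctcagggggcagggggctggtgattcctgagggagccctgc
Mirg, chr12:109734731-109735030: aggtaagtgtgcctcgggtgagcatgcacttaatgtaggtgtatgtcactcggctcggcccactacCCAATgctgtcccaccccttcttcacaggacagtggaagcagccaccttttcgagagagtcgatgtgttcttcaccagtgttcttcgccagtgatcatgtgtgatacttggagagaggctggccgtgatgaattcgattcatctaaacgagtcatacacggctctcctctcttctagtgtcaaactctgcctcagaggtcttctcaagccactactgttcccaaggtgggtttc

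The Meg3 window held 1 TGACGTCA starting at position -57 from the start site, 1 CCAAT at -100 and 2 overlapping TATAAA matches on opposite strands, at -29 and -25. Of 32851 RefSeq promoter windows, 1.79% held TGACGTCA, 13.6% TATAAA, 37.4% CCAAT and 8.65% a TCF/LEF core. The Rian window held none of these motifs and no CG pair. The Mirg window held 1 CCAAT and 10 CG pairs, and the Meg3 window 13 CG pairs. RefSeq lists a second Meg3 start whose window, from 109545148 to 109545447, held none of the motifs. A match describes the letters and is not evidence of a bound factor.

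Meg3 had 841 UMIs in Cox10-/- hepatocyte-like nuclei, 202 CPM (188 to 216), against 20 UMIs in wild-type ones, 2.81 CPM (1.72 to 4.34). The ratio was 71.8 (46.2 to 118). Rian had 172 UMIs (41.2 CPM, 35.3 to 47.9) in Cox10-/- hepatocyte-like nuclei and 0 in wild-type ones. With 3 UMIs over the whole wild-type sum taken as a floor, it was at least 97.9-fold higher, and the exact interval of the ratio starts at 78.8. Mirg had 28 UMIs (6.71 CPM, 4.46 to 9.70) in Cox10-/- hepatocyte-like nuclei and 0 in wild-type ones, at least 15.9-fold higher by the same floor, with an interval that starts at 12.1. All 3 maternal noncoding RNAs were thus higher in the Cox10-/- library and near or at 0 in the wild-type one. Mirg was low even in the Cox10-/- library, at 6.71 CPM.

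The paternal protein-coding genes were close to the limit of detection. Dlk1 had 2 UMIs in Cox10-/- hepatocyte-like nuclei and 0 in wild-type ones, and Rtl1 had 3 and 0. At these counts no difference was detectable, and no fold is given. Over all deposited nuclei Dlk1 had 5 UMIs in the Cox10-/- library and 0 in the wild-type library, and Rtl1 had 4 and 0.

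A gene was counted as higher or lower when its ratio was at least 2-fold, its whole interval lay beyond 1.5-fold and it had at least 20 UMIs over both libraries. Of the 5 genes 3 reached that depth, and all 3 were higher. Among all 11451 genes at that depth 7.59% were higher and 3.25% lower, and since this contrast chose the genes, nothing is read from the count.

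B830012L14Rik, a noncoding RNA between Rian and Mirg from 109695586 to 109702587, was examined after its values were seen. It had 77 UMIs (18.5 CPM) in Cox10-/- hepatocyte-like nuclei and 2 UMIs (0.281 CPM) in wild-type ones, a ratio of 65.7 (17.6 to 552). Dio3os, an antisense RNA at the far end of the domain, had 9 UMIs (2.16 CPM) in Cox10-/- nuclei and 29 UMIs (4.07 CPM) in wild-type ones, and the interval of its ratio, 0.530 (0.221 to 1.15), included 1. Dio3, which encodes the deiodinase that inactivates thyroid hormone, had 0 UMIs in either library.

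Going along the chromosome, the difference was seen at the plus-strand noncoding genes from Meg3 to Mirg. Its ends were not resolved. Genes between Wdr25 and Meg3, and between Mirg and Gm34667, had at most 2 UMIs in hepatocyte-like nuclei of either library. Wdr25, which starts at -559 kb from the Dlk1 start, had 23.0 CPM in Cox10-/- hepatocyte-like nuclei and 20.1 CPM in wild-type ones. Gm34667, a predicted noncoding gene at 571 kb from that start, had 406 CPM in Cox10-/- and 482 CPM in wild-type nuclei. Ppp2r5c, which encodes a subunit of protein phosphatase 2A and lies beyond Dio3, had 63.5 CPM in Cox10-/- and 71.3 CPM in wild-type nuclei.

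**Figure D1:**
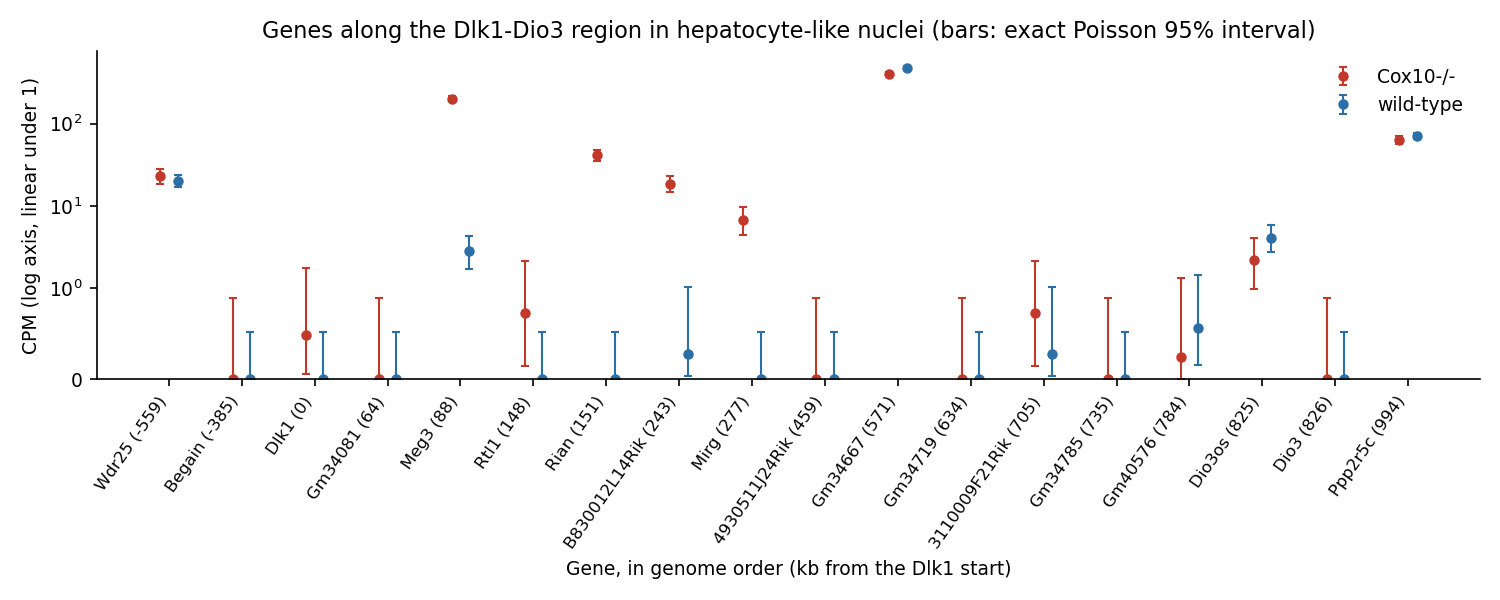
Level of 18 genes in genome order, in CPM on a log axis that is linear under 1, in hepatocyte-like nuclei of the Cox10-/- library (red, left of each pair) and the wild-type library (blue). Meg3, Rian, B830012L14Rik and Mirg lie well apart between the libraries, at 202, 41.2, 18.5 and 6.71 CPM in Cox10-/- nuclei, whereas Wdr25, Gm34667 and Ppp2r5c lie close together.

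A list of 19 genes in or beside the domain had 14 at the required depth, of which 2 were higher and 0 lower, beside the 7.59% higher and 3.25% lower of all genes. The higher ones were Slc25a47, a liver-enriched mitochondrial carrier, at 973 CPM in Cox10-/- and 299 CPM in wild-type nuclei (3.25-fold), and Hsp90aa1, a heat shock chaperone, at 62.3 and 25.6 CPM in that order (2.44-fold). Hsp90aa1 did not pass with at least 1000 genes per nucleus (1.87-fold) or without a shallow cluster of 444 Cox10-/- nuclei (1.82-fold, an alternative chosen after seeing the data), and Slc25a47 passed in all settings. The other 12 lay between the limits, among them Yy1 (98.3 CPM in Cox10-/- and 89.5 CPM in wild-type nuclei), a zinc finger transcription factor, and Dync1h1 (87.0 and 69.9 CPM in that order), the heavy chain of cytoplasmic dynein. The median log2 ratio of the list was 0.02, and that of all 11451 genes was -0.03.

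Of 49 measured genes imprinted elsewhere, 25 had the required depth, of which 4 were higher and 1 lower, beside 7.59% and 3.25% of all genes. The median log2 ratio of the 25 was 0.17, and that of all genes was -0.03. H19, a noncoding RNA abundant in fetal liver, had 25 UMIs in Cox10-/- hepatocyte-like nuclei and 1 in wild-type ones, a ratio of 42.7 (6.99 to 1753). Airn, the noncoding RNA read antisense to Igf2r, had 142 CPM in Cox10-/- and 22.6 CPM in wild-type nuclei, 6.28-fold (5.27 to 7.52), and Slc22a3, an organic cation transporter gene beside it, was 2.20-fold higher (1.53 to 3.17). Dcn, a matrix proteoglycan that also marks stellate cells, had 56.1 CPM in Cox10-/- and 2.67 CPM in wild-type nuclei. Ddc, which encodes aromatic amino acid decarboxylase, was 2.01-fold lower. Its call was lost without the mitochondrial limit (1.72-fold lower), with at least 1000 genes per nucleus (1.94-fold), without the highest 4% of doublet scores (a ratio of 0.664, against 0.497 as reported) and without the shallow cluster (1.92-fold). The Slc22a3 call was lost in 4 settings too, among them at least 1000 genes (1.92-fold higher) and no shallow cluster (1.99-fold), and the H19 call was lost in 4 settings that left it fewer UMIs or asked for more. The Dcn ratio lay between 14.5 and 48.6 over all settings. The Cox10-/- library held 617 stellate-like nuclei and the wild-type library 2, and their part in the Dcn value was not tested.

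Within the Cox10-/- library Meg3 was higher in hepatocyte-like nuclei, taken as a class, than in any other class with more than 50 nuclei. It stood at 202 CPM in hepatocyte-like, 34.4 CPM (22.5 to 50.5) in myeloid-like, 30.8 CPM (23.1 to 40.3) in stellate-like, 17.3 CPM (9.45 to 29.0) in unnamed and 10.96 CPM (6.87 to 16.6) in endothelial-like nuclei. Unnamed nuclei are those of clusters that met no naming rule, not 1 cell type. Of the 175 in this library, 90 had log2 marker excesses of 0.91 for hepatocytes and 2.03 for cholangiocytes. Another 58 had 4.70 for endothelial and 4.55 for stellate cells. Of the 841 hepatocyte-like UMIs, 732 came from the 270 nuclei of 1 cluster, cluster 9. The hepatocyte-like clusters 5 and 4 had 40.2 CPM (31.9 to 49.9) and 46.9 CPM (30.4 to 69.3). These intervals overlap those of myeloid-like and stellate-like nuclei, so the ratios below describe the class sum and not every hepatocyte-like cluster. The intervals of myeloid-like and stellate-like nuclei overlapped, as did those of unnamed and endothelial-like nuclei. One myeloid-like nucleus held 16 of that class's 26 Meg3 UMIs. Meg3 had 1 UMI in 41 lymphoid-like nuclei and 0 in 22 cholangiocyte-like nuclei, which allows a share of up to 13.6% with a Meg3 UMI (3 nuclei of the total, the limit used here for every share of 0). The ratio of hepatocyte-like nuclei over endothelial-like nuclei was 18.4 (12.1 to 29.5), over stellate-like nuclei 6.55 (4.96 to 8.81) and over myeloid-like nuclei 5.86 (3.97 to 9.02). With the highest 4% of doublet scores left out, a setting in which 1 Cox10-/- hepatocyte-like cluster lost its name, the log2 ratios were 5.42, 4.01 and 5.4 in place of 4.2, 2.71 and 2.55.

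Rian was also highest in hepatocyte-like nuclei, with 41.2 CPM, against 10.6 CPM (4.57 to 20.9) in myeloid-like, 8.72 CPM (4.88 to 14.4) in stellate-like, 1.49 CPM from 3 UMIs in endothelial-like and 1.24 CPM from 1 UMI in unnamed nuclei. The order within the myeloid-like and stellate-like pair, and within the endothelial-like and unnamed pair, was not resolved. Its ratio of hepatocyte-like over endothelial-like nuclei was 27.6 (9.29 to 135) and over stellate-like nuclei 4.73 (2.79 to 8.64). Mirg had 28 UMIs in hepatocyte-like nuclei and 2 or 3 in each of the endothelial-like, stellate-like and myeloid-like classes.

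Transcripts of hepatocyte marker genes were present in every class of the Cox10-/- library. Over 14 hepatocyte markers, the median level in endothelial-like nuclei was 83.1% of that in hepatocyte-like nuclei, and it was 74.4% in stellate-like and 69.5% in myeloid-like nuclei. The lowest marker was Cps1, which encodes a mitochondrial urea cycle enzyme, at 19.4%, 15.1% and 18.3% in that order. Meg3 stood at 5.43%, 15.3% and 17.1% of its hepatocyte level in the same 3 classes. How much of the Meg3 signal in these classes is free RNA was not tested.

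**Figure D2:**
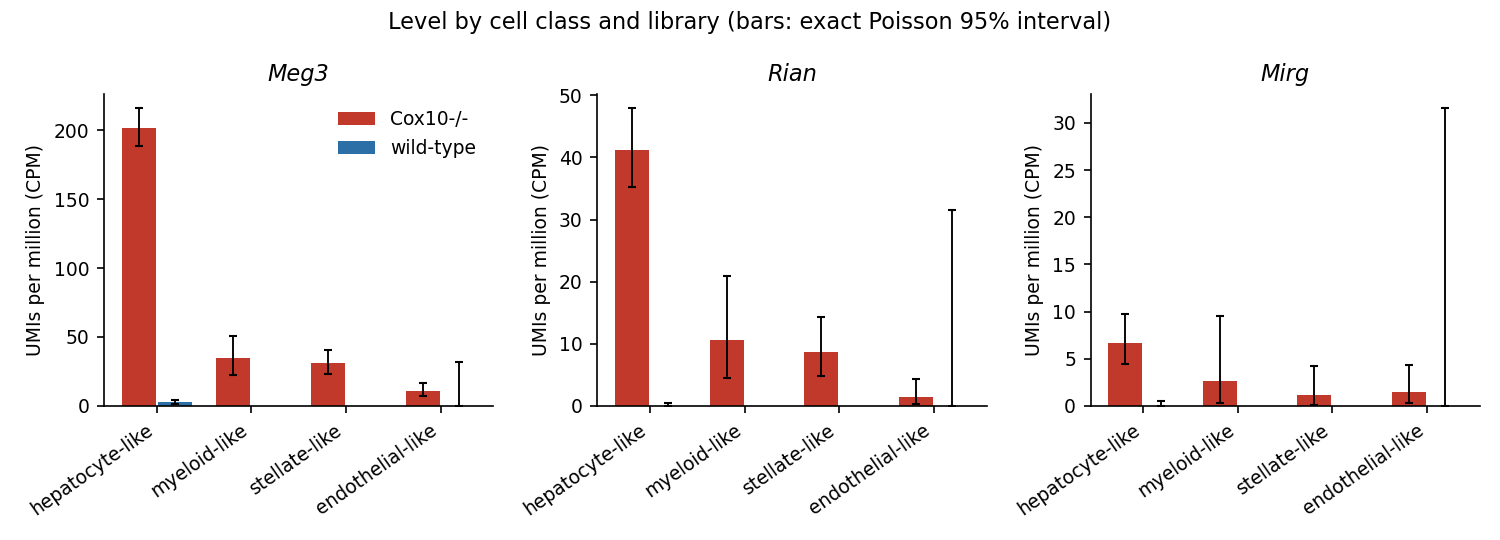
Level of Meg3, Rian and Mirg in CPM by cell class, in the Cox10-/- library (red, left) and the wild-type library (blue), with exact Poisson 95% intervals. Wild-type bars are drawn only for classes with at least 20 nuclei. Hepatocyte-like Cox10-/- nuclei carry the tallest bars, 202 CPM for Meg3 and 41.2 CPM for Rian, and the interval of the 25 wild-type endothelial-like nuclei, with 0 UMIs, reaches 31.5 CPM.

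Non-hepatocyte nuclei of the wild-type library were too few for a comparison. None of its 25 endothelial-like nuclei had a Meg3 UMI, which allows a share of up to 12%. With no limit on mitochondrially encoded UMIs, 140 wild-type endothelial-like nuclei had 0 Meg3 UMIs and 33 stellate-like nuclei had 1. In the same set, 1744 Cox10-/- hepatocyte-like nuclei had 968 Meg3 UMIs (184 CPM) and 5195 wild-type ones had 44 (2.60 CPM). These wild-type nuclei also had 4 Rian UMIs and 1 Mirg UMI.

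The proportions of the 3 RNAs had overlapping intervals between hepatocyte-like nuclei and the rest. For every 100 Meg3 UMIs there were 20.5 Rian UMIs (17.3 to 24.1) in Cox10-/- hepatocyte-like nuclei and 24.1 (15.4 to 36.7) in all other Cox10-/- nuclei together. The others include the unnamed nuclei. Mirg had 3.33 UMIs (2.20 to 4.85) per 100 Meg3 UMIs in hepatocyte-like nuclei and 6.03 (2.37 to 12.8) in the others. In wild-type hepatocyte-like nuclei without the mitochondrial limit, Rian had 9.09 UMIs (2.37 to 25) per 100 Meg3 UMIs, an interval that overlaps the Cox10-/- one. UMIs are not scaled for transcript length, so these are proportions of captured molecules.

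Most Cox10-/- hepatocyte-like nuclei had no Meg3 UMI, and a small number had many. Meg3 was found in 129 of 1170 Cox10-/- hepatocyte-like nuclei (11.03%, 9.29 to 12.96) and in 4 of 1502 wild-type ones (0.266%, 0.0726 to 0.680). Median depths were 2660.5 and 4415 UMIs in that order. With each nucleus thinned to 1000 UMIs, which left out 43 Cox10-/- nuclei and 1 wild-type nucleus, Meg3 was found in 90 of 1127 Cox10-/- nuclei (7.99%) and in 2 of 1501 wild-type nuclei (0.133%). The thinned share in Cox10-/- endothelial-like nuclei, at a median of 2264 UMIs before thinning, was 1.08% (0.496 to 2.05).

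Of the 129 positive Cox10-/- nuclei, 59 had 1 Meg3 UMI, 8 had 2 and 62 had 3 or more. The 27 nuclei with at least 10 UMIs held 573 of the 841 UMIs (68.1%). The 16 highest nuclei, 1.37% of the 1170, were enough to reach 50% of the total, and without them Meg3 still stood at 101 CPM. The 4 positive wild-type nuclei had 15, 3, 1 and 1 UMIs. Because the UMIs of 1 nucleus are not independent, the Poisson intervals above are narrower than the true uncertainty of a class level.

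**Figure D3:**
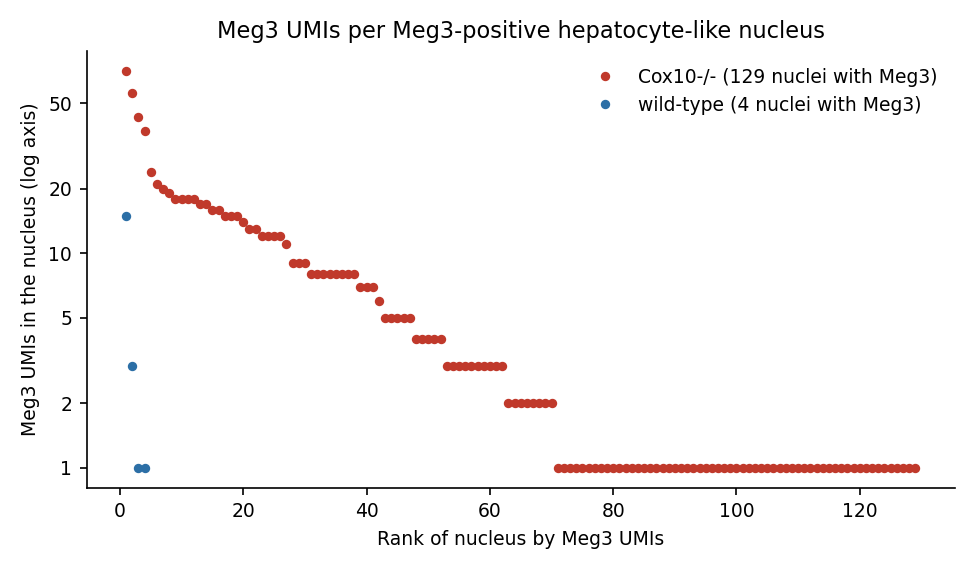
Meg3 UMIs (log axis) in each Meg3-positive hepatocyte-like nucleus, ranked within the Cox10-/- library (red, 129 nuclei) and the wild-type library (blue, 4 nuclei). Cox10-/- nuclei run from 71 UMIs to a long row at 1 UMI, and the highest wild-type nucleus has 15.

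The 8 nuclei with the most Meg3 belonged to 1 cluster of the Cox10-/- library. The highest had 71 Meg3, 14 Rian, 2 Mirg and 6 B830012L14Rik UMIs among 8198 in all. The next had 56 Meg3, 13 Rian and 1 Mirg UMIs, and the third had 43 Meg3, 6 Rian and 1 Mirg UMIs. All 8 carried transcripts of Alb, which encodes albumin, and of Cps1, and had 0 UMIs of the sinusoidal endothelial marker Stab2. The stellate marker Reln had 1, 2, 6 and 1 UMIs in the nuclei ranked 2, 3, 5 and 6, and 0 in the others. The doublet scores of these 8 nuclei were at most 0.0317. The highest wild-type nucleus, with 15 Meg3 UMIs and 0 Rian UMIs, had 15 UMIs of Glul, the glutamine synthetase of hepatocytes around the central vein, and 16 of the glutamate transporter Slc1a2. In the 8 Cox10-/- nuclei these 2 genes varied widely. By rank, Glul had 5, 13, 0, 15, 1, 4, 6 and 3 UMIs, and Slc1a2 had 1, 55, 0, 30, 0, 1, 16 and 0.

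By cluster, Meg3 was highest in the 270 Cox10-/- nuclei of cluster 9, whose leading genes included Fosb, Cyp2c39, Lgr5 and Slc1a2, at 492 CPM (457 to 528), with a Meg3 UMI in 27.4% of nuclei. Cluster 5, with 431 nuclei and led by Cyp2b10, Scara5 and Etnppl, had 40.2 CPM (31.9 to 49.9). Cluster 4, with 444 nuclei, a median of only 1125 UMIs and the acute phase genes Saa1 and Saa2 among its leading genes, had 46.9 CPM (30.4 to 69.3). Rian stood at 98.0, 10.3 and 9.39 CPM in clusters 9, 5 and 4. In clusters 5 and 4 the intervals of both RNAs overlapped those of myeloid-like and stellate-like nuclei. In the wild-type library 19 of 20 Meg3 UMIs fell in cluster 7 (279 nuclei, 12.97 CPM) and none in the 474 nuclei of cluster 3. The 5 genes were left out of the clustering.

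Hepatocytes differ along the axis from the portal vein to the central vein, and Glul, Lgr5 and Slc1a2 are expressed next to the central vein. Nuclei of each library were ordered by a score of 16 pericentral against 16 periportal genes and split into tertiles of equal size. The tertiles were cut within each library, so the same tertile covers different scores in the 2 libraries. Some nuclei lay within 0.25 score units of a cut, 332 of the 1170 Cox10-/- and 425 of the 1502 wild-type ones, so neighbouring tertiles are not distinct types.

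Meg3 increased toward the pericentral end in both libraries. In Cox10-/- nuclei it had 35.1, 270 and 533 CPM in the periportal, middle and pericentral tertiles, a pericentral over periportal ratio of 15.2 (11.9 to 19.7). In wild-type nuclei it had 0.438, 0 and 8.03 CPM from 1, 0 and 19 UMIs, a ratio of 18.3 (2.91 to 761). Of the 19 wild-type pericentral UMIs 15 came from 1 nucleus. Without the mitochondrial limit the wild-type values were 0.526, 0 and 6.95 CPM, from 3, 0 and 41 UMIs in 3, 0 and 10 nuclei, and the ratio was 13.2 (4.22 to 66.7).

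Rian in Cox10-/- nuclei had 11.8, 61.9 and 86.4 CPM from the periportal to the pericentral tertile, a ratio of 7.29 (4.56 to 12.0). Mirg had 11, 10 and 7 UMIs, a ratio of 1.68 (0.553 to 4.75) that does not separate the tertiles. Meg3 and Rian passed the 2-fold rule in Cox10-/- nuclei, where 5.12% of 8722 genes did so, and Meg3 in wild-type nuclei, where 1.2% of 9591 genes did so. For Glul, a member of the score, the ratio was 5.19 in Cox10-/- and 8.41 in wild-type nuclei, and for Lgr5, another member, 14.9 and 56.9 in that order. Between tertiles of the same rank, which are not equal zone positions, Meg3 was 80.0-fold (13.9 to 3201), at least 223-fold and 66.4-fold (42.0 to 111) higher in Cox10-/- than in wild-type nuclei, from the periportal to the pericentral end.

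Depth moved with the tertiles in the Cox10-/- library, with median UMIs of 4904, 2209 and 1188.5 from the periportal to the pericentral end, against 4312, 4541 and 4428 in the wild-type library. The periportal gene Cyp2f2 did not fall along the Cox10-/- order (ratio 1.08, 0.928 to 1.26), whereas it did along the wild-type order (0.283). Without the shallow cluster of 444 nuclei, an alternative chosen after seeing the data, Cyp2f2 had a ratio of 0.477 (0.393 to 0.575) and Meg3 had 14.8, 108 and 640 CPM, a ratio of 43.2 (28.0 to 70.2). Rian then had a ratio of 13.6 (7.49 to 27.0). The share of nuclei with a Meg3 UMI was then 4.13%, 10.7% and 28.5% from the periportal to the pericentral end, against 6.15%, 12.1% and 14.9% with the shallow cluster kept. Over 12 alternative settings the log2 ratio of Meg3 lay between 1.27 and 5.67 (3.93 as reported) and that of Rian between 0.489 and 4.47 (2.87 as reported), so the direction was kept and the size was not.

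**Figure D4:**
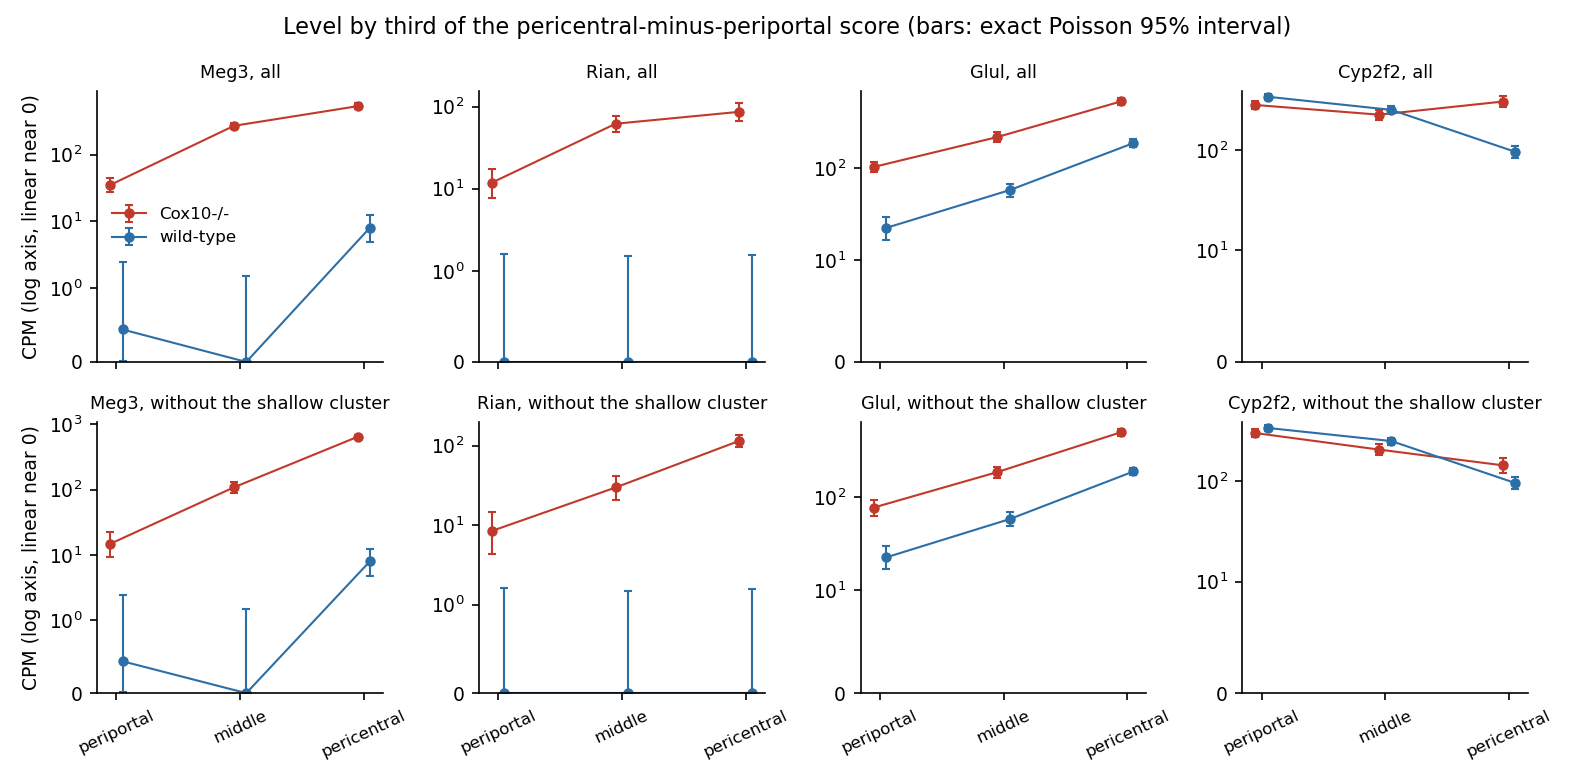
Level of Meg3, Rian, Glul and Cyp2f2 in CPM (log axis, linear near 0) by tertile of the zone score, in Cox10-/- (red, left of each pair) and wild-type (blue) hepatocyte-like nuclei, with exact Poisson 95% intervals. The upper row holds all hepatocyte-like nuclei and the lower row leaves out the shallow cluster. Meg3 reaches 533 CPM in the Cox10-/- pericentral tertile and 640 CPM without that cluster, and 8.03 CPM in the wild-type one.

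Rian and B830012L14Rik were found more often in Meg3-positive than in Meg3-negative nuclei, and for Mirg the counts were too few to tell. With nuclei thinned to 1000 UMIs, Rian was found in 14 of 90 Meg3-positive Cox10-/- hepatocyte-like nuclei (15.6%, 8.77 to 24.7) and in 6 of 1037 Meg3-negative ones (0.579%, 0.213 to 1.26). B830012L14Rik was found in 6.67% of Meg3-positive nuclei (2.49 to 13.9) and 0.386% of Meg3-negative ones (0.105 to 0.985), and Mirg in 2.22% (0.270 to 7.80) and 0.289% (0.0597 to 0.843) in that order, intervals that overlap. Without thinning, Rian was found in 45 of the 62 nuclei with at least 3 Meg3 UMIs (72.6%) and in 15 of 1041 nuclei with none (1.44%). These unthinned shares are not matched for depth. At 1000 UMIs, Rian was found in 5 of 25 nuclei with at least 3 Meg3 UMIs (20%, 6.83 to 40.7). Within cluster 9 alone, examined after seeing the data, Rian was found in 11 of 58 Meg3-positive nuclei (18.97%, 9.87 to 31.4) and 2 of 212 Meg3-negative ones (0.943%, 0.114 to 3.37). In the shallow cluster 4 it was found in 0 of 17 Meg3-positive nuclei, which allows a share of up to 17.6%.

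**Figure D5:**
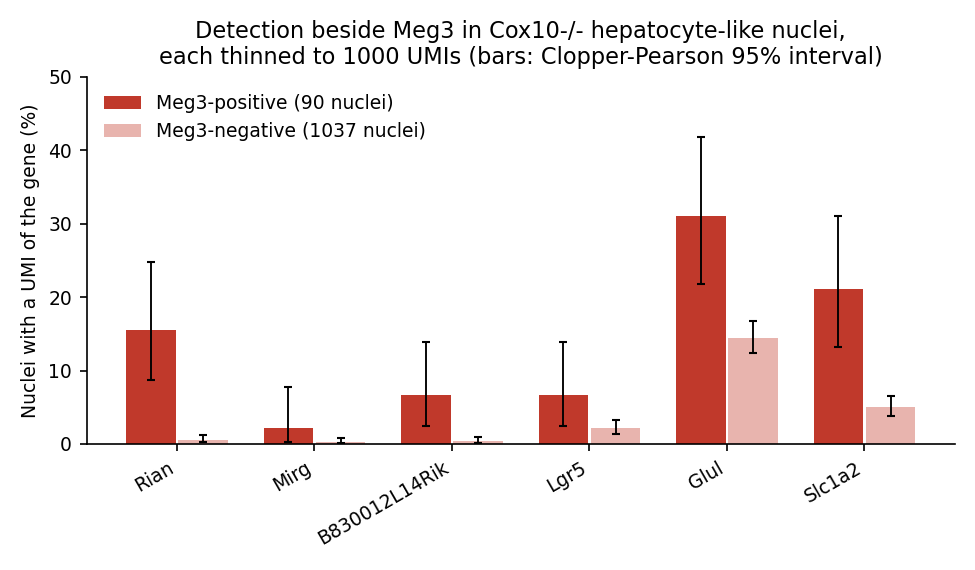
Share of Cox10-/- hepatocyte-like nuclei, each thinned to 1000 UMIs, with a UMI of the named gene, for 90 Meg3-positive nuclei (dark, left) and 1037 Meg3-negative nuclei (pale), with Clopper-Pearson 95% intervals. Rian was found in 15.6% and 0.579% and Glul in 31.1% and 14.5% of the 2 sets in that order.

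Meg3-positive nuclei differed from Meg3-negative nuclei of the same library in few other genes. Of 6252 genes with at least 20 thinned UMIs, 23 (0.368%) were higher and 8 (0.128%) lower. With at least 2 Meg3 UMIs asked of a positive nucleus, 52 were higher and 13 lower. Rian was 28.0-fold higher (11.03 to 79.8), from 17 UMIs in positive and 7 in negative nuclei. Slc1a2 was 5.91-fold higher (4.24 to 8.16), Lhpp, a histidine phosphatase gene, 5.19-fold, Glul 3.38-fold and Cyp2c39, a cytochrome P450, 3.20-fold. With nuclei thinned to 600 UMIs the log2 ratio was 0.58 for Glul (1.76 as reported), under the 2-fold limit, and 1.52 for Slc1a2 (2.56 as reported). Without thinning that of Slc1a2 was 3.26, and with at least 2 Meg3 UMIs asked of a positive nucleus the values were 2.56 for Glul and 3.13 for Slc1a2. Airn was 5.17-fold higher (3.54 to 7.46), at 489 CPM in positive and 94.5 CPM in negative nuclei. Other named genes above the limit were the noncoding RNA Snhg11 (7.68-fold), the stress-induced transcription factor Atf3 (3.22-fold), the mitochondrial carrier Slc25a21 (2.28-fold), the transporter Abca8b (2.73-fold) and the nuclear factor Tox (2.19-fold).

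Of the 8 genes lower in Meg3-positive nuclei, 7 met the naming rule. Aspg, an asparaginase, had 1 UMI in positive and 177 in negative nuclei, 15.4-fold lower (2.72 to 610). Sds, which breaks down serine, was 4.47-fold lower (2.69 to 8.03), Gldc, the glycine decarboxylase, 3.43-fold, Hal, the histidine ammonia-lyase, 3.31-fold and Etnppl, a phospho-lyase, 2.71-fold. Slc25a51, the mitochondrial NAD carrier, was 3.47-fold lower, and Cox7a2, a subunit of cytochrome c oxidase, was 5.64-fold lower (1.53 to 47.1) from 2 UMIs in positive nuclei. Arg1, Nipsnap2 and Atp5d were next and did not pass the rule.

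By list, 3 of 14 pericentral genes were higher and 0 lower in Meg3-positive nuclei, and 0 of 15 periportal genes were higher and 3 lower. Of all 6252 genes, 0.368% were higher and 0.128% lower. Most tested genes of both lists lay between the limits. The median log2 ratio was 0.28 for the pericentral list and -0.47 for the periportal list, beside -0.01 for all genes. Of the 90 positive nuclei, 58 were in cluster 9, against 212 of the 1037 negative ones, so the 2 sets differ in their cluster makeup. Within cluster 9 Airn was found in 56.9% of positive (43.2 to 69.8) and 21.7% of negative nuclei (16.3 to 27.9), Slc1a2 in 25.9% (15.3 to 39.0) and 9.43% (5.86 to 14.2), and Glul in 44.8% (31.7 to 58.5) and 29.7% (23.7 to 36.4) in that order, the last with overlapping intervals.

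Most marker genes of other cell types had too few UMIs for the rule. Those with enough were 2 of 16 endothelial, 5 of 14 stellate, 5 of 11 Kupffer cell, 1 of 7 dendritic cell and 3 of 10 cholangiocyte markers, and none of them passed in either direction. Since only 0.368% of all 6252 genes were higher and 0.128% lower, nothing is read from that count. The summed level of 16 endothelial markers was 111 CPM in positive and 155 CPM in negative nuclei, and that of 14 stellate markers 256 and 299 CPM in that order. The summed level of 10 cholangiocyte markers was 511 CPM in positive and 487 CPM in negative nuclei, and that of 9 fibroblast and smooth muscle markers 33.3 CPM from 3 UMIs and 20.3 CPM from 21 UMIs in that order. Stab2 had 0 UMIs in positive and 16 in negative nuclei, and Pecam1 0 and 6, whereas Kdr had 2 and 11 and Lyve1 1 and 3, in that order. The 11 T and NK cell markers together had 0 UMIs in positive and 6 in negative nuclei. At these counts no difference was detectable. The sets were alike in depth before thinning, with medians of 2879.5 UMIs in positive and 2782 UMIs in negative nuclei, and the median mitochondrially encoded share was 4.52% and 5.64% in that order.

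Across 12 sums of at least 50 nuclei of 1 library and cluster, the genes most like Meg3 among 7506 were Cyp2c39 (Pearson r of log2(CPM + 1) 0.91), the immediate early genes Fos (0.91) and Nr4a1 (0.90), the actin gene Actg1 (0.87), Myl12a (0.82), Krt8 (0.81), Ntrk2 (0.80) and Oat (0.79). Rian had an r of 0.89 and Mirg of 0.80. Because the sums span the contrast between libraries that chose Meg3 and Rian, nothing is read from the r of Rian. The sums of a library share its preparation and depth, 9 of them come from the Cox10-/- library, and these values describe the 12 sums only.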

How the data were processed

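The authors deposited 1 table of raw UMI counts of both libraries, not normalized. Per the submitters' processing notes, Cell Ranger 7.0 and mm10 were used. How introns were counted and nuclei filtered is not stated there. In the table, nuclei had 601 to 3999 genes and under 20% mitochondrially encoded UMIs. Coordinates came from GENCODE vM21, in which 31490 of 32286 symbols were found.

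Nuclei were kept from 500 UMIs and 300 genes upward, with a mitochondrially encoded share of 10% or less. Scrublet marked 14 Cox10-/- and 0 wild-type doublets. These were removed, and with so few marks doublets may remain, so doublet scores are given only as values. Clustering used scanpy 1.11.5 (2000 variable genes without the domain's genes, 30 components, 15 neighbours, Leiden resolution 1.0, no integration), giving 17 clusters. Marker lists named them, and the naming thresholds were chosen with the data in view. A non-hepatocyte name needed a log2 marker excess of 2.5 over other clusters, a gap of 1.5 to the next class and 3 markers. A hepatocyte name needed every other class under 1 and a positive excess, of any size, for a hepatocyte list.

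UMIs were summed per library and class and divided by the total to give CPM. Intervals are exact Poisson for sums, Clopper-Pearson for shares and conditional binomial for ratios. Where a count was 0, the fold given as "at least" used a floor of 3 UMIs over the sum compared. Median log2 ratios of gene lists between the libraries were taken with a prior of 0.5 UMIs, scaled by depth, added to each count. Calls were tested on simulated data. edgeR 4.0.16 (TMM) and DESeq2 1.42.0 gave alternative scale factors only. With 1 library per group no test was run. The genes, lists and rules were chosen with earlier results of these data known. Genes were named by rule: the 5 genes, neighbours, up to 8 imprinted genes past the 2-fold rule, the 8 most like Meg3 and the 10 highest and 10 lowest in Meg3-positive nuclei, without predicted, mitochondrial or sex-linked genes.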

Additional observations from a re-analysis of the deposited data

How the results depend on the processing

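No result changed direction under any alternative run, 162 alternative values stayed within the spread or counting error of the reported one (counts within 1.5 times), and 43 moved beyond it. Values here are log2 ratios or counts. Meg3 in hepatocyte-like nuclei, Cox10-/- over wild-type, lay between 5.71 and 7.01 (6.17 as reported), and TMM and DESeq2 factors left it within that range. Leaving out the highest 4% of doublet scores gave the 7.01, with 5.42 over endothelial-like, 4.01 over stellate-like and 5.4 over myeloid-like nuclei, 0 imprinted genes lower, and zone ratios of 1.76 for Meg3 and 1.35 for Rian. There the Cyp2b10 cluster, with 428 Cox10-/- nuclei, went unnamed by a narrow margin of the naming rule. No mitochondrial limit gave 6.68 for Mirg, 0 imprinted genes lower and zone ratios of 2.78 (Meg3) and 2.06 (Rian). A minimum of 1000 genes gave 1 neighbour (Hsp90aa1 was lost) and 2 imprinted genes higher, 0 lower, and zone ratios of 5.36 and 3.72. Thinning to 1000 UMIs gave 3.41 for Rian and 1.15 for Mirg, since the floor of 3 UMIs then weighs more. A minimum of 100 UMIs left 544 genes higher. Without the shallow cluster 1 neighbour was higher and 0 imprinted genes lower. The lost neighbour was again Hsp90aa1, and the lost lower gene was Ddc in each of these settings. The share of Cox10-/- nuclei with Meg3 was 5.73% at 600 UMIs and 11% unthinned.

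The zone ratios in Cox10-/- nuclei also moved (3.93 for Meg3 and 2.87 for Rian as reported). Meg3 gave 5.67 with the score split into 5 groups, 3.41 without Glul, Lgr5 and Slc1a2 in it, and 2.12 for nuclei with a Glul UMI against those with none, and Rian gave 4.47 with 5 groups and 0.489 by Glul. Chosen after seeing the data, leaving out the shallow cluster gave 5.43 and 3.76, and the share of nuclei in place of CPM gave 1.27 and 1.05. For Meg3-positive nuclei, 600 UMIs gave 2 genes lower, no thinning 52 higher and 24 lower, at least 2 Meg3 UMIs 52 higher and 13 lower, and no shallow cluster 13 lower. Apart from the construction named above, the cause was not tested. A limit of 1% mitochondrially encoded UMIs could not be run, since it left 10 nuclei, all Cox10-/-. The mean of CPM over nuclei was run for the 3 RNAs only. No paired analysis was possible because each group has 1 library.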
